A study of Homo sapiens with 12 samples.

Results

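Imprinted genes are expressed mainly from the copy inherited from 1 parent, following marks of DNA methylation set in the egg or the sperm. They lie in clusters, and many act in fetal growth: paternally expressed members such as MEST and PLAGL1 and maternally expressed members such as H19, MEG3 and CDKN1C are switched on in embryo and placenta and are low in many adult tissues. Gain or loss of their expression is a known feature of many tumours. Counts per gene, as used here, do not separate the parental copies.

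The 10 genes described here are MEST, PEG10, PEG3, H19, MEG3, DLK1, NNAT, NDN, CDKN1C and PLAGL1, chosen as the rows of the count table that carry these symbols, out of 60649 genes. Each symbol had 1 row. They were measured by RNA sequencing in 12 libraries of a pair of wild-type human leiomyosarcoma lines: SK-UT-1B, derived from a primary uterine tumour, and SK-LMS-1, derived from a vulvar metastasis. Cells were exposed for 72 h to DMSO (the vehicle), to MK-0752 alone (a gamma secretase inhibitor, which blocks cleavage of Notch receptors; SK-LMS-1 only), or to a combination of MK-0752, gemcitabine (a nucleoside analog) and docetaxel (a microtubule-stabilising taxane). MK-0752 alone and the mixture were each dosed to inhibit viability by 30%, so that the drugs of the mixture were not at the concentration each would need alone. SK-LMS-1 gave 8 libraries: 2 DMSO libraries of set 2, 2 MK-0752 libraries of set 2, and 2 DMSO and 2 combination libraries of set 4, where the set is the first number in the library's name. SK-UT-1B gave 4: 2 DMSO libraries (set 4) and 2 combination libraries (set 3), so that treatment and set cannot be told apart in that line. After the combination the lines are compared across sets (4 in SK-LMS-1, 3 in SK-UT-1B), so line and set cannot be told apart there either. After DMSO, sets 2 and 4 of SK-LMS-1 stand against set 4 of SK-UT-1B. The difference of the combination effect between the lines carries the same limit. What a set is was not given in the sources used here, nor whether libraries of a group came from separate cultures, so the p-values measure only the spread between these libraries. The doses differed between the lines and between MK-0752 alone and in combination. Each line stands for 1 tumour, so a difference between them is a difference between 2 lines and not between kinds of tumour.

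The libraries held 25250057 to 40709885 counted reads. Of the smooth muscle markers, ACTA2, TAGLN, CNN1, CALD1, SMTN and LMOD1 were called higher and DES lower in SK-LMS-1 in the DMSO comparison of the lines, while MYH11, the smooth muscle myosin heavy chain, had at most 5 counts in any library, and MYOCD, its upstream regulator, had 0 counts in SK-UT-1B and 0 to 36 in SK-LMS-1. The estrogen receptor gene ESR1 ranged from 0 to 152 counts, and PGR, the progesterone receptor gene, had 0 counts in 11 libraries and 8 in the other. The keratin genes KRT8 and KRT18 had 2294 to 5126 counts in SK-LMS-1 and 0 to 33 in SK-UT-1B. Of the other epithelial markers listed, KRT19 had 226 to 503 and 0 to 27, EPCAM 0 to 37 and 0, and CDH1 0 and 0 to 3 counts in SK-LMS-1 and SK-UT-1B respectively. Both lines are labelled as uterine leiomyosarcoma.

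The members are spread over 7 chromosomes in the hg38 genome (GENCODE release 44). PLAGL1 (ENSG00000118495.20), a zinc finger transcription factor, lies at chr6:143940300-144064599 on the minus strand. PEG10 (ENSG00000242265.6), a gene derived from a retrotransposon and needed for the placenta, lies at chr7:94656325-94669695 on the plus strand, and MEST (ENSG00000106484.16), which codes for a member of the alpha/beta hydrolase fold family, at chr7:130486171-130506465 on the plus strand. H19 (ENSG00000130600.19), a long noncoding RNA, and CDKN1C (ENSG00000129757.15), which codes for the cyclin-dependent kinase inhibitor p57, lie on the minus strand at chr11:1995166-2004552 and chr11:2883213-2885775. DLK1 (ENSG00000185559.16), a noncanonical Notch ligand, and MEG3 (ENSG00000214548.18), a long noncoding RNA, lie on the plus strand at chr14:100725705-100738224 and chr14:100779410-100861031. NDN (ENSG00000182636.8), the growth suppressor necdin, lies at chr15:23685400-23687305 on the minus strand, PEG3 (ENSG00000198300.14), a zinc finger protein, at chr19:56810077-56840728 on the minus strand, and NNAT (ENSG00000053438.11), the small membrane protein neuronatin, at chr20:37521206-37523690 on the plus strand. The versions of the H19 and PLAGL1 identifiers in the count table differ from those of release 44, and their coordinates are those of release 44. Some members overlap another gene on the opposite strand: MEST overlaps COPG2, PEG10 overlaps SGCE, and NNAT lies inside BLCAP. PEG3 begins beside the start of ZIM2, and PLAGL1 overlaps HYMAI, in each case on the same strand. The strand setting of the counting was not given in the sources used here, so reads of overlapping genes may not be fully separated.

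Parental marks at imprinted genes are set at CpG dinucleotides, and promoters of 5 of the 10 members were found in the RefSeq promoter table (GRCh38.p14, 250 bases before to 50 after a start). Of these, 4 genes called between the lines are shown, MEST, MEG3, NDN and PLAGL1, each by its entry richest in CpG, 5′ to 3′ on the gene's strand, with each CpG in capitals. The MEST promoter is chr7:130491835-130492134, that of MEG3 chr14:100825858-100826157, that of NDN chr15:23687256-23687555 and that of PLAGL1 chr6:144008210-144008509.
MEST: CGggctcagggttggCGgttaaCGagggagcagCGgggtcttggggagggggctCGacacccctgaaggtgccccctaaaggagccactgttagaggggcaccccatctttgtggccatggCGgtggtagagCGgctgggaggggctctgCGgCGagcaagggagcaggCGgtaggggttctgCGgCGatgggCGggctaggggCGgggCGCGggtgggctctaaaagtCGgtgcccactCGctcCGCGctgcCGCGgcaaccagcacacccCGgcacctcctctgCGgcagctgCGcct
MEG3: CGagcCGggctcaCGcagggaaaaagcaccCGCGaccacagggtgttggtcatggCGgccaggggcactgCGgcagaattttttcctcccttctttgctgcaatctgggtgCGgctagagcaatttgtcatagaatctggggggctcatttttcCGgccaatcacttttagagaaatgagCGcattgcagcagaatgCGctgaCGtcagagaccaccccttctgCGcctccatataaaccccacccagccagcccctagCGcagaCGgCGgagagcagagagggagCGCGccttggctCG
NDN: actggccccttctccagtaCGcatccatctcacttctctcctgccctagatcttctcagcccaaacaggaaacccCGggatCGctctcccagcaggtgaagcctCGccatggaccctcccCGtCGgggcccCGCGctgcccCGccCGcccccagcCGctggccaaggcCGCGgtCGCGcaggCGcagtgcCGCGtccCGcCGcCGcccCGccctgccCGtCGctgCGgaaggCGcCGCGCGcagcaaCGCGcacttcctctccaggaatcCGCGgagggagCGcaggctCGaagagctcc
PLAGL1: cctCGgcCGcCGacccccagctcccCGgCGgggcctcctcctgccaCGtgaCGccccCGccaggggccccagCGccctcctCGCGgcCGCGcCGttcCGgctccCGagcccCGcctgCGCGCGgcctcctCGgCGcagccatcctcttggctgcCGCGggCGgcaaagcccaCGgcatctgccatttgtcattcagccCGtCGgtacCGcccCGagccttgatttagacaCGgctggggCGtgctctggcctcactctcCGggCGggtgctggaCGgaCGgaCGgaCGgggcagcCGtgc
These 300 bases hold 25 CpG in MEST, 19 in MEG3, 35 in NDN and 39 in PLAGL1, against a median of 14 over 35116 promoters of the same length. The richest entry of each gene was taken, which raises its count, so no excess over the median can be read from them. At least as many were held by 32% of all promoters for MEST, 42.9% for MEG3, 14.1% for NDN and 8.71% for PLAGL1. For the entry poorest in CpG the share was 51.7% for MEST (13 CpG), 46% for MEG3 (17) and 89% for PLAGL1 (2). The H19 entry, not shown, held 6 CpG (66.3%). The letters TGACGTCA, the cAMP response element and its own reverse complement, occurred in the MEG3 promoter and in 1.85% of all promoters. The letters TGCCGC or, on the other strand, GCGGCA, which ZFP57 (a protein that maintains imprints) binds when methylated, occurred in all 4 and in 16.7% of all promoters. These are descriptions of letters in the reference, chosen after the sequences were read, and no methylation was measured.

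Levels are given as counts and as CPM, counts scaled to the size of the library with TMM factors (a correction for library composition). The first comparison asked how the imprinted genes differ between the lines. MEST was at high levels in SK-UT-1B and near 0 in SK-LMS-1, whereas PEG3, MEG3, NNAT and NDN were detected in SK-LMS-1 and were at or near 0 in SK-UT-1B. PEG10, CDKN1C and PLAGL1 were detected in all 12 libraries. H19 and DLK1 were at or near 0 in both lines.

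**Figure D1:**
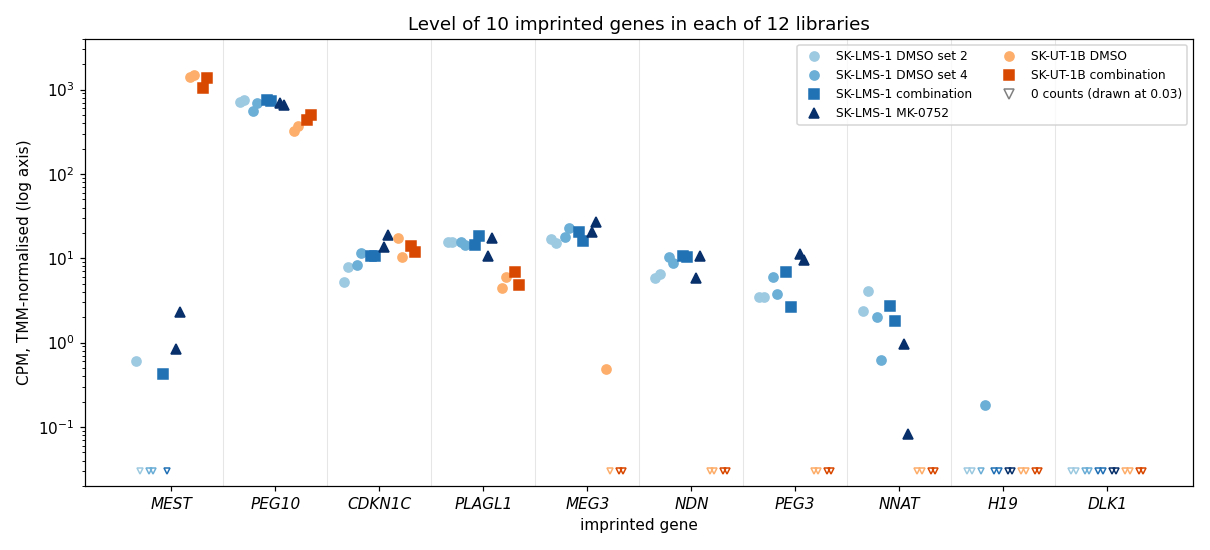
Level of each of the 10 imprinted genes in each of the 12 libraries, in CPM on a log axis, with symbols by line and treatment and open triangles for libraries with 0 counts. MEST lies between 1040.0 and 1473 CPM in the SK-UT-1B libraries and at or below 2.34 CPM in those of SK-LMS-1, while NDN, PEG3 and NNAT have 0 counts in all 4 SK-UT-1B libraries.

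MEST had 41209 and 55543 counts in the SK-UT-1B DMSO libraries and 38061 and 38439 in the combination libraries. In SK-LMS-1 it had 21 and 0 counts (DMSO set 2), 0 and 0 (DMSO set 4), 14 and 0 after the combination, and 30 and 86 after MK-0752. The groups of the lines did not overlap. After DMSO the means were 0.150 ± 0.301 CPM (SD, n = 4) in SK-LMS-1 and 1450 ± 33.0 CPM (SD, n = 2) in SK-UT-1B, a ratio of means of -13.23 on the log2 scale (edgeR quasi-likelihood test, Benjamini-Hochberg adjusted p = 6.43e-05). After the combination the means were 0.210 and 1202 CPM, a ratio of -12.48 (edgeR adjusted p = 0.000446). Both rest, on the SK-LMS-1 side, on 0 to 21 counts a library, and the size is not fixed by them: the fitted log2 fold change (log2FC) of MEST, which takes in groups at 0, was -15.30 and -12.27, and with 1 library left out it ran from -18.53 to -14.91 and from -18.25 to -11.48.

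The opposite pattern was that of a set of genes read only or almost only in SK-LMS-1. NDN had 204 and 178 counts (DMSO set 2), 255 and 335 (DMSO set 4), 350 and 255 after the combination, and 208 and 394 after MK-0752, against 0 in each of the 4 SK-UT-1B libraries. A fold against a group at 0 is given here as a bound against a floor of 3 counts a library, which covers counting error only. Zeros were more common in these libraries than counting error gives, since genes expected at 10 to 50 counts had 0 in 17.0% to 47.3% of cases a library, so that none of the folds given as "at least" here or below is a strict bound. Under DMSO the NDN level (7.83 ± 2.07 CPM, SD, n = 4) was thus at least 85.4-fold higher than in SK-UT-1B, with an edgeR adjusted p of 6.36e-07. The bound was 111-fold in the combination libraries (edgeR adjusted p = 7.31e-07).

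PEG3 had 120 and 97 counts (DMSO set 2), 147 and 144 (DMSO set 4), 226 and 64 after the combination, and 406 and 348 after MK-0752, and 0 in all 4 SK-UT-1B libraries. Under DMSO, the SK-LMS-1 level of PEG3 was at least 45.4-fold that of SK-UT-1B (edgeR adjusted p = 1.91e-05). In the combination libraries the bound was 5.64 on the log2 scale (edgeR adjusted p = 2.82e-05). NNAT was read less deeply, with 83 and 113 counts (DMSO set 2), 49 and 24 (DMSO set 4), 90 and 44 after the combination, 34 and 3 after MK-0752, and 0 in SK-UT-1B. The smallest of these, 3 counts, is at the floor, so that 7 of the 8 SK-LMS-1 libraries were above it. Under DMSO, NNAT was at least 24.8-fold higher than in SK-UT-1B (edgeR adjusted p = 0.00894), and in the combination libraries at least 23.9-fold higher (edgeR adjusted p = 0.01205).

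MEG3, whose RNA is expressed from the maternal copy, had 585 and 420 counts (DMSO set 2), 439 and 882 (DMSO set 4), 678 and 388 after the combination, and 730 and 989 after MK-0752. In SK-UT-1B it had 14 counts in DMSO library 1 and 0 in the other 3 libraries. The log2FC after DMSO was 6.30 ± 0.87 (SE; edgeR adjusted p = 9.64e-05), with means of 18.2 ± 3.31 CPM (SD, n = 4) and 0.242 ± 0.343 CPM (SD, n = 2), and ran from 5.21 to 12.19 with 1 library left out, where the upper end is fitted against a lone SK-UT-1B library at 0 and is not a measured size. In the combination libraries the MEG3 level was at least 193-fold that of SK-UT-1B (edgeR adjusted p = 3.34e-05).

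PLAGL1 was read in both lines. SK-LMS-1 had 539 and 427 counts (DMSO set 2), 386 and 550 (DMSO set 4), 481 and 450 after the combination, and 384 and 648 after MK-0752, and the counts in SK-UT-1B were 127 and 229 (DMSO) and 254 and 136 (combination). The lines did not overlap in CPM: the lowest SK-LMS-1 library had 10.8 CPM and the highest SK-UT-1B library 6.94 CPM. PLAGL1 was called higher in SK-LMS-1 after DMSO, with a log2FC of 1.54 ± 0.38 (SE; edgeR adjusted p = 0.00266), and after the combination, with 1.48 ± 0.42 (SE; edgeR adjusted p = 0.00866). Its call rests on single libraries: without SK-UT-1B DMSO replicate 1 the first was 1.28 (edgeR adjusted p = 0.0696), and without SK-LMS-1 combination replicate 2 or SK-UT-1B combination replicate 3 the second was 1.29 or 1.24 (edgeR adjusted p = 0.137 and 0.100).

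PEG10 was the most abundant member in SK-LMS-1, with 24596 and 20676 counts (DMSO set 2), 13690 and 26617 (DMSO set 4), 25184 and 17652 after the combination, and 24728 and 23917 after MK-0752. The SK-UT-1B counts of PEG10 were 9374 and 13910 (DMSO) and 15828 and 14200 (combination). The lines did not overlap in CPM, from 555 to 757 in SK-LMS-1 and from 325 to 504 in SK-UT-1B. The log2FC was 0.96 ± 0.13 (SE; edgeR adjusted p = 4.83e-06) after DMSO and 0.66 ± 0.14 (SE; edgeR adjusted p = 0.00111) after the combination. Both passed the p threshold and missed the call, which also asks for a log2FC of at least 1. Without SK-UT-1B DMSO replicate 2 the first was 1.05, which is a call.

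CDKN1C had 184 and 219 counts (DMSO set 2), 204 and 444 (DMSO set 4), 352 and 256 after the combination, and 484 and 688 after MK-0752, and in SK-UT-1B 505 and 392 (DMSO) and 506 and 332 (combination). The lines overlapped. The log2FC was -0.79 ± 0.36 (SE; edgeR adjusted p = 0.0868) after DMSO and -0.28 ± 0.42 (SE; edgeR adjusted p = 0.668) after the combination, with 95% intervals of -1.48 to -0.09 and -1.11 to 0.55.

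H19 and DLK1 did not pass the filter on low counts and were not tested. DLK1 had 0 counts in all 12 libraries. H19 had 7 counts (0.181 CPM) in DMSO set 4 library 2 of SK-LMS-1 and 0 in the other 11. A count of 0 allows up to 3 counts, which is 0.0777 to 0.123 CPM over the libraries and covers counting error only.

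Of the 10 genes, 5 were called higher in SK-LMS-1 after DMSO (PEG3, MEG3, NNAT, NDN and PLAGL1), 1 lower (MEST), 2 tested were not called and 2 were not tested. The same genes were called in each direction after the combination. Of all 21114 genes tested, 17.0% were called higher and 14.1% lower after DMSO, and 15.6% and 9.88% after the combination, so that calls between these lines were common. MEST, PEG3, MEG3, NNAT and NDN passed the low-count filter through 1 line, which had to give a difference, and the count of members is therefore a description.

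**Figure D2:**
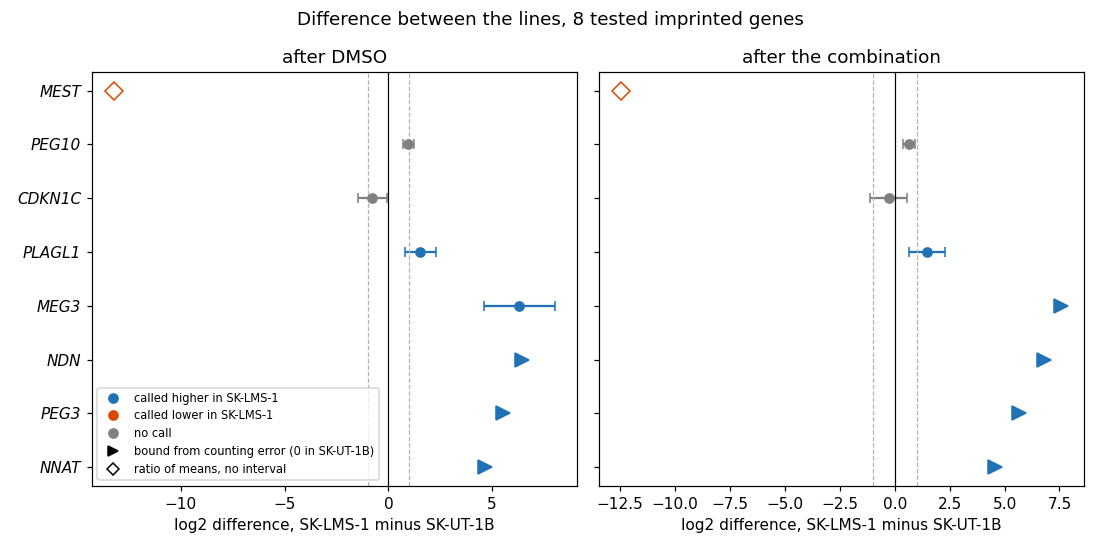
Log2 difference between the lines (SK-LMS-1 minus SK-UT-1B) for the 8 tested imprinted genes, after DMSO (left) and after the combination (right), with points and 95% intervals of the edgeR fit, arrows for bounds from counting error where SK-UT-1B was at 0, an open diamond for the ratio of means of MEST, and dashed lines at a log2FC of 1 and -1. MEST lies at -13.23 and -12.48, PLAGL1 at 1.54 and 1.48, PEG10 at 0.96 and 0.66 with intervals above 0, and CDKN1C at -0.79 and -0.28.

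Levels of different genes were compared per kilobase of exon, over all libraries of a line. In SK-UT-1B, MEST had 278 ± 41.1 CPM per kb (SD, n = 4), PEG10 60.9 ± 11.7, CDKN1C 5.39 ± 1.24, PLAGL1 0.867 ± 0.182 and MEG3 0.00522 ± 0.0104, and the ranges of neighbours in that order did not overlap. In SK-LMS-1, PEG10 stood apart with 103 ± 9.63 CPM per kb (SD, n = 8). Below it came NDN with 4.51 ± 1.16, CDKN1C with 4.35 ± 1.64, PLAGL1 with 2.38 ± 0.363, NNAT with 1.38 ± 0.964, MEG3 with 0.841 ± 0.170, PEG3 with 0.600 ± 0.325 and MEST with 0.110 ± 0.168. Each of these overlapped its neighbour in the order. The exon length is that of all annotated exons of a gene joined, 23.2 kb for MEG3 and 1.33 kb for NNAT, so the value per kb is too low for a gene that uses few of its annotated exons.

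The next comparison asked whether the drugs moved these genes. No member was called after the combination in either line or after MK-0752 in SK-LMS-1, each against its DMSO libraries. The share of all tested genes called was 0.559% in SK-UT-1B and, in SK-LMS-1, 0.0237% and 0.251%, so that a count of 0 among 8 tested members is near the background. These shares moved many-fold with 1 library left out. At an unadjusted edgeR p under 0.05 the count of members was 2, 0 and 1, beside 10.5%, 4.33% and 6.41% of all tested genes, and DESeq2 called 1, 0 and 0. With 2 libraries a group the intervals were wide for all members but PEG10. Groups this small often do not overlap without a change. The share of all tested genes without overlap was not counted, so lack of overlap is only a description.

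In SK-UT-1B, PEG10 had 325 and 369 CPM in the DMSO libraries and 432 and 504 CPM in the combination libraries, and the groups did not overlap. The log2FC was 0.43 ± 0.14 (SE; edgeR unadjusted p = 0.00695, adjusted p = 0.209), with a 95% interval of 0.15 to 0.71. MEST went from 1450 ± 33.0 CPM to 1202 ± 229 CPM (SD, n = 2 each), a log2FC of -0.27 ± 0.63 (SE; edgeR adjusted p = 1). CDKN1C had a log2FC of -0.12 ± 0.42 and PLAGL1 of 0.17 ± 0.41 (SE; edgeR adjusted p = 1 for both). MEG3 had 14 and 0 counts under DMSO and none in the combination libraries (edgeR unadjusted p = 0.0145, adjusted p = 0.285), and it is this gene that DESeq2 called lower. Leaving out SK-UT-1B DMSO replicate 2 or combination replicate 3 also gave the call (edgeR adjusted p = 2.78e-05 and 0.0143). The size behind these calls is not measured, since 14 counts in 1 library stand against a group at 0, and the bound on the fold of MEG3 with all libraries was 2.57. PEG3, NNAT and NDN were at 0 in both groups.

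In SK-LMS-1 after the combination, each of the 7 tested members with counts above the floor in its DMSO set 4 libraries had a 95% interval that included 0. The closest was PEG10, with 555 and 690 CPM under DMSO, 757 and 724 CPM in the combination libraries and a log2FC of 0.25 ± 0.14 (SE; edgeR adjusted p = 0.907). The others were CDKN1C at 0.09 ± 0.42, PLAGL1 at 0.14 ± 0.41, NDN at 0.14 ± 0.64, PEG3 at -0.04 ± 0.83, MEG3 at -0.16 ± 0.66 and NNAT at 0.79 ± 1.74 (log2FC ± SE). MEST had no counts in these DMSO libraries and 14 and 0 counts in the treated ones, which was no call. Among genes expected at 10 to 50 counts, 45.1% and 44.5% had 0 in these DMSO libraries, against 17.0% and 19.3% in the treated ones. Whether this bears on MEST was not tested. Without DMSO set 4 replicate 1 or combination replicate 2 MEST was called higher (edgeR adjusted p = 0.0370 and 7.13e-05), where the 1 library left in a group is assumed to vary like the other groups. With DMSO set 4 at 0 its size is not measured, and the bound with all libraries was 2.11-fold.

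In SK-LMS-1 after MK-0752, CDKN1C had 13.6 and 18.7 CPM, against 5.27 and 7.93 CPM in DMSO set 2, and the groups did not overlap. Its log2FC was 1.29 ± 0.43 (SE; edgeR unadjusted p = 0.00715, adjusted p = 0.407), which did not pass the correction. The DMSO set 4 libraries, not used in this comparison, had 8.28 and 11.5 CPM. PEG3 had 11.4 and 9.46 CPM after MK-0752 against 3.44 and 3.51 CPM, again without overlap, and its log2FC was 1.58 ± 0.84 (SE; edgeR adjusted p = 0.806). The 4 SK-LMS-1 DMSO libraries together had at most 5.96 CPM of PEG3. Between MK-0752 and DMSO set 2, MEST, PEG10, MEG3 and NNAT did not overlap either, while NDN and PLAGL1 did.

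NNAT had 0.954 and 0.0815 CPM after MK-0752 against 2.38 and 4.09 CPM in DMSO set 2, a log2FC of -2.64 ± 1.84 (SE; edgeR adjusted p = 0.806). This log2FC ran from -5.25 to -1.76 with 1 library left out and from -2.64 to -1.33 under the other alternatives. The 34 and 3 counts behind the treated value and the 24 counts of 1 DMSO set 4 library show how far this gene varied among libraries. MEST, at 30 and 86 counts after MK-0752 and 21 and 0 in DMSO set 2, had a log2FC of 2.26 (95% interval 0.06 to 4.46; edgeR unadjusted p = 0.0953, adjusted p = 0.806) and stayed far below its level in SK-UT-1B. Without DMSO set 2 replicate 1, DMSO set 2 replicate 3 or MK-0752 replicate 2 it was called higher (edgeR adjusted p = 2.37e-14, 0.00785 and 8.69e-15), again with 1 library left in a group. The log2FC was 1.38 and 2.81 in the last 2 of these, and the first is against a library at 0, so that no size is given. MEG3 (0.57 ± 0.66), NDN (0.43 ± 0.64), PLAGL1 (-0.12 ± 0.41) and PEG10 (-0.11 ± 0.14) had intervals that included 0 (log2FC ± SE). That of PEG10 ran from -0.39 to 0.17.

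**Figure D3:**
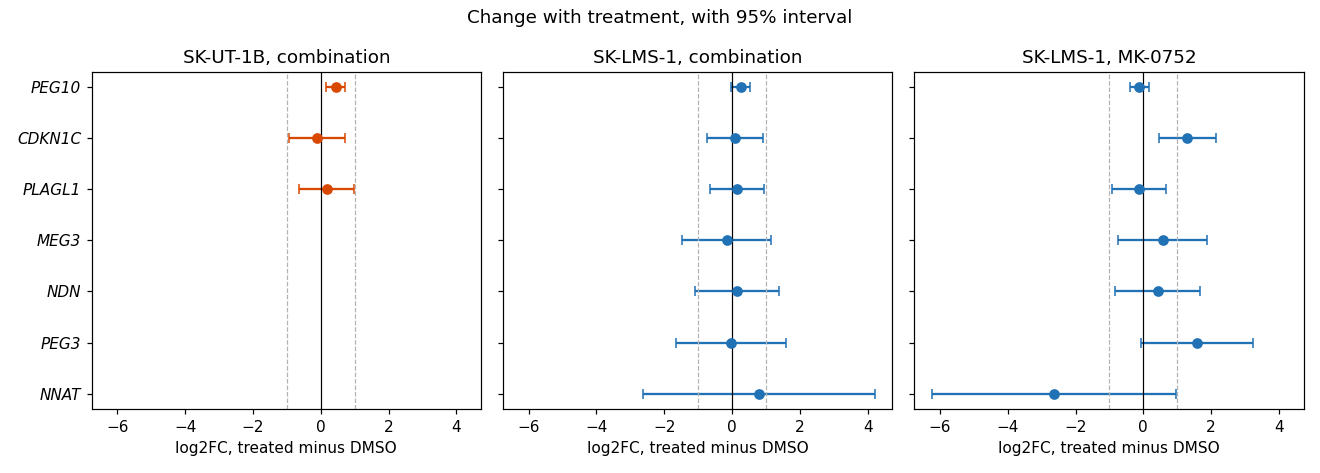
Log2FC of treated against DMSO libraries with its 95% interval for the members detected above a few counts, by line and treatment, with dashed lines at 1 and -1. MEST, and MEG3, NDN, PEG3 and NNAT in SK-UT-1B, are not drawn. No point drawn was called, and of the intervals drawn those that exclude 0 are those of PEG10 in SK-UT-1B (0.43) and CDKN1C after MK-0752 (1.29).

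The effect of the combination did not differ between the lines for any member at the call threshold (edgeR 0 called, DESeq2 0 called, and 0.232% of all tested genes called by edgeR). At an unadjusted edgeR p under 0.05 there was 1 member, beside 7.67% of all tested genes. The member with that p was MEG3 (edgeR unadjusted p = 0.0255, adjusted p = 0.603), whose SK-UT-1B value rests on 14 counts in 1 library. With 1 library left out, 140 to 429 of all tested genes were called higher and 132 to 399 lower. In these fits MEG3 was called in 6 of 8 and MEST in 7 of 8, and each call rests on at most 14 counts in SK-UT-1B or SK-LMS-1 against a group at 0, so that no size is given. For PEG10 the difference of effects was -0.18 ± 0.20, for CDKN1C 0.21 ± 0.60 and for PLAGL1 -0.03 ± 0.58 (log2FC ± SE, SK-LMS-1 minus SK-UT-1B). The DMSO sets of SK-LMS-1, which hold no drug, were also compared with each other. By edgeR 0 members were called and by DESeq2 0, with 0% of all tested genes called by edgeR. At an unadjusted edgeR p under 0.05 there were 0 members, beside 5.67% of all tested genes. With 1 library left out, 28 to 148 of all tested genes were called higher in set 4 and 51 to 226 lower. Without DMSO set 2 replicate 3 or either DMSO set 4 library, MEST was called lower in set 4, from 21 counts in 1 set 2 library against 0 in set 4. The bound with all libraries was 3.02-fold.

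Imprinted genes share control regions with their neighbours, so a chosen set of neighbours is given beside the members, and TFPI2 for its call after MK-0752. Other genes of the wider list below also lie in these bands, among them ASCL2 and OSBPL5 at 11p15, UBE3A and ATP10A at 15q11 and CALCR and ASB4 at 7q21, and are counted with that list. At 14q32, where DLK1, RTL1 and DIO3 are expressed from the paternal copy and MEG3, MEG8 and MEG9 from the maternal copy, the 3 maternally expressed RNAs were read in SK-LMS-1. MEG8 had 365 to 1211 counts in the 8 SK-LMS-1 libraries and 0 in all 4 SK-UT-1B libraries, a level at least 161-fold higher under DMSO (edgeR adjusted p = 4.71e-09). MEG9 had 0 to 30 counts in SK-LMS-1 and 0 in SK-UT-1B and was not called. The paternally expressed genes were at or near 0 in both lines, with DLK1 and DIO3 at 0 in all 12 libraries and RTL1 at 15 counts in 1 library and 0 in the others.

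At 15q11, NDN, MAGEL2 and MKRN3 are paternally expressed and lie together. MAGEL2 had 0 to 42 counts and MKRN3 0 to 59 in SK-LMS-1, and both had 0 in SK-UT-1B, without a call. SNRPN and SNHG14 of the same region were read in both lines. SNHG14 was called lower in SK-LMS-1 after DMSO, with 78.0 and 213 CPM and a log2FC of -1.45 ± 0.13 (SE; edgeR adjusted p = 1.92e-08), whereas NDN was higher there. SNRPN had 5 to 90 counts in SK-LMS-1 and 24 to 124 in SK-UT-1B and was not called.

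At 7q32 the neighbours of MEST did not share 1 direction. KLF14, a maternally expressed transcription factor, followed MEST, with 0 counts in all SK-LMS-1 libraries and 372 to 613 in SK-UT-1B, a level under DMSO at least 146-fold lower in the former (edgeR adjusted p = 8.91e-08). COPG2, which overlaps the end of MEST on the other strand, was higher in SK-LMS-1 with a log2FC of 1.52 ± 0.15 (SE; edgeR adjusted p = 8.98e-08), and CPA4 was not called (-0.06 ± 0.21). MESTIT1, antisense to the start of MEST, had 28 counts in 1 SK-UT-1B combination library and 0 in all others. At 7q21, PEG10 had the smallest difference of the 4 genes given here. SGCE, which begins beside PEG10 on the other strand, had a log2FC of 3.62 ± 0.30, PPP1R9A of 2.52 ± 0.32 and TFPI2 of 5.85 ± 0.21 after DMSO (SE; called higher in SK-LMS-1 by edgeR).

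At 11p15, IGF2, the paternally expressed growth factor paired with H19, had 0 counts in all 8 SK-LMS-1 libraries and 171, 212, 124 and 148 in SK-UT-1B, a level under DMSO at least 58.6-fold lower in the former (edgeR adjusted p = 0.000112). H19 was at 0 in those same SK-UT-1B libraries. In the neighbouring CDKN1C domain, the antisense RNA KCNQ1OT1 was lower in SK-LMS-1 (-2.77 ± 0.23, log2FC ± SE), KCNQ1 had 0 counts in SK-LMS-1 and 12 to 151 in SK-UT-1B, and PHLDA2, a growth-restraining gene of the placenta, was higher in SK-LMS-1 (4.76 ± 0.28). SLC22A18, like CDKN1C, was not called. At 20q11, BLCAP, which contains NNAT, had a log2FC of 0.73 ± 0.24 after DMSO, not called, and 1.04 ± 0.27 after the combination, called. At 19q13, ZIM2 had 14 counts in 1 library, and MIMT1 and USP29 had 0 in all. HYMAI, beside PLAGL1 at 6q24, had 44 counts in 1 SK-LMS-1 library, 37 in 1 SK-UT-1B library and 0 in the others.

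**Figure D4:**
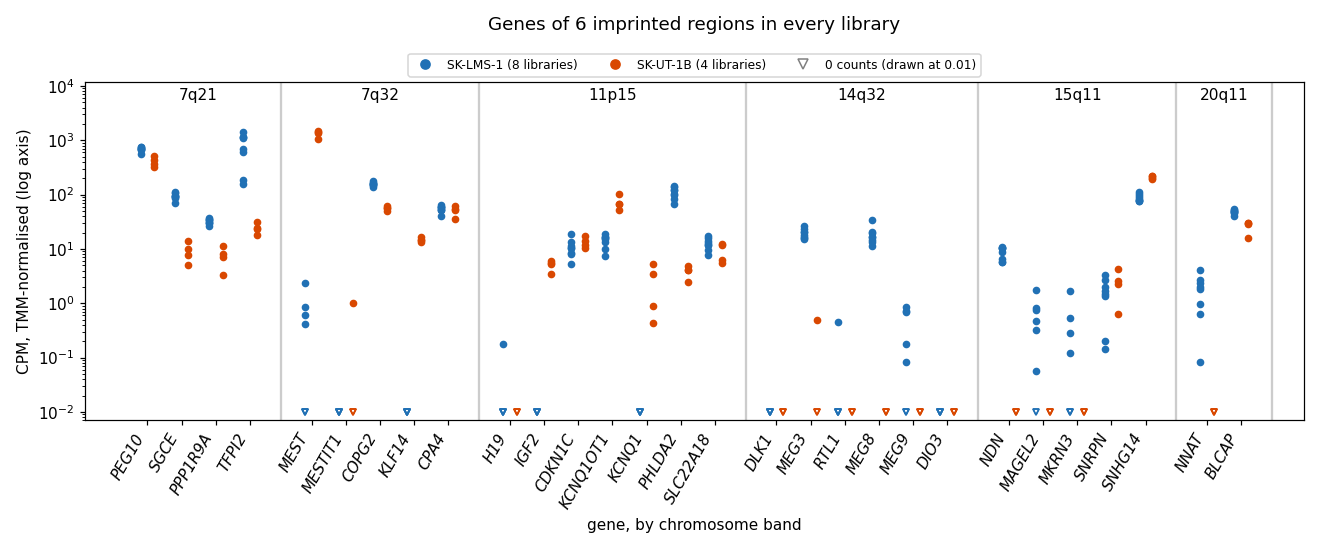
CPM of members and their neighbours in 6 chromosome bands in every library, on a log axis, in blue for SK-LMS-1 and orange for SK-UT-1B, with open triangles for 0 counts. MEG3 and MEG8 are read in SK-LMS-1 while DLK1 and DIO3 are at 0 in both lines, and KLF14, like MEST, is read mainly in SK-UT-1B.

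A wider list of 61 other imprinted genes had 59 in the table and 46 tested. After DMSO 12 were called higher in SK-LMS-1 and 10 lower, which is 26.1% and 21.7% of those tested beside 17.0% and 14.1% of all tested genes, and the median log2FC was 0.05. After the combination the counts were 13 and 11, which is 28.3% and 23.9% of those tested beside 15.6% and 9.88% of all tested genes. Genes at 0 in 1 line, such as IGF2, KLF14 and MEG8, passed the low-count filter through the other, so these shares too are a description. The extremes by fitted log2FC after DMSO were ZDBF2 (at least 276-fold), DIRAS3 (at least 196-fold) and MEG8 on the high side, and DLX5 (at least 888-fold lower), TP73 (at least 264-fold) and KLF14 on the low side. After the combination the order of fitted values put SLC22A3 (5.45 CPM, against 0 in SK-UT-1B) beside ZDBF2 and MEG8, while DIRAS3 had means of 15.7 and 0.123 CPM. A fitted value against a group at 0 is not a measured size, so these orders do not rank sizes.

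In the treatment comparisons, 1 gene of the wider list was called with all libraries, TFPI2, a protease inhibitor of the extracellular matrix whose gene lies near PEG10. In SK-LMS-1 it had 1412 and 1144 CPM in DMSO set 2 and 188 and 157 CPM after MK-0752, a log2FC of -2.89 ± 0.18 (SE; edgeR adjusted p = 3.13e-08). After the combination it had 607 and 677 CPM against 1116 and 1171 CPM in DMSO set 4 (-0.83 ± 0.17, edgeR adjusted p = 0.229), without overlap. PEG10 in the same MK-0752 libraries had a log2FC of -0.11. The difference of the combination effect between the lines was -1.21 ± 0.25 for TFPI2 (SE; edgeR adjusted p = 0.0456), and this call was lost with a filter at a mean count of 50 (adjusted p = 0.105), with only the libraries of the comparison (0.248), with the replicate block (0.0686), and, by size, without SK-UT-1B DMSO replicate 1 or SK-UT-1B combination replicate 3 (-0.99 and -0.98).

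A list of 23 genes that act on imprints or on DNA methylation, to set, keep or remove it, had 17 tested. After DMSO 10 were called lower in SK-LMS-1 and 0 higher, which is 58.8% of those tested beside 14.1% of all tested genes, and the median log2FC was -1.47. The largest differences were those of the TET genes, which code for enzymes that oxidise methylcytosine: TET3 at -3.07 ± 0.17, TET1 at -2.80 ± 0.18 and TET2 at -2.22 ± 0.17 (log2FC ± SE). DNMT1, the maintenance DNA methyltransferase, was at -1.47 ± 0.17, and its partner UHRF1 at -2.00 ± 0.18. ZFP57, DPPA3, CTCFL and DNMT3L had 0 counts in all 12 libraries. After the combination 10 were also called lower (58.8% of those tested, beside 9.88% of all tested genes). In the 3 treatment comparisons edgeR called 0 of the 17, with 5 (SK-UT-1B combination), 4 (SK-LMS-1 combination) and 3 (SK-LMS-1 MK-0752) at an unadjusted p under 0.05 (10.5%, 4.33% and 6.41% of all tested genes), and DESeq2 called 0. Whether these levels bear on those of the imprinted genes was not tested.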

How the data were processed

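RNA was sequenced as stranded, ribosomal RNA-depleted libraries, 75-base single reads, from 12 samples. The authors trimmed the reads (Trim Galore 0.3.7 per the submitters' notes), aligned them to hg38 with STAR 2.7.9a, removed ribosomal reads and counted genes with STAR. The deposited values are raw counts per gene, not normalised. The annotation, strand setting and handling of duplicates were not given in the sources used here. The table's unversioned identifiers matched GENCODE release 44 for 60507 of 60649 genes.

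Counts were tested with edgeR 4.0.16 (R 4.3.3): TMM scaling, filterByExpr, and the robust quasi-likelihood fit over 12 libraries in 6 groups of 2, which share 1 estimate of the spread. Benjamini-Hochberg adjustment ran over 21114 tested genes. Calls required an adjusted p under 0.05 and a change of 1 or more on the log2 scale, the study's thresholds. Intervals are called 95% and are 1.96 SE to each side. They take the SE as exact, which the quasi-likelihood test with few libraries does not. They are therefore narrower than its p-values allow, and whether an interval excludes 0 is not a test. A group with at most 3 counts in every library counted as not detected. The fit, tested on simulated data for SK-UT-1B combination against DMSO over 21114 genes, recovered 100% of 4-fold and 100% of 8-fold changes, with 7.41% of calls false. The changed genes were all drawn from those expected above 200 counts, with 1 spread for every gene and no added zeros. Recovery therefore does not speak for members read at lower counts, nor for the excess zeros of these libraries. In the data, NNAT (log2FC -2.64) and MEST (2.26) after MK-0752 were not called. Depth was 25250057 to 40709885 counts a library. Groups came from the labels. The table's column names give the line for SK-UT-1B only, and columns that name no line were read as SK-LMS-1. Each treatment was compared with the DMSO libraries of its line (in SK-LMS-1, those of its set), and the lines were compared within each shared treatment. Alternatives were DESeq2 1.42.0, its size factors, other filters, fewer libraries, other controls, the replicate block and each library left out.

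All 10 genes are named. Of the other lists, genes in a member's domain, genes called in a treatment comparison, and the 3 highest and 3 lowest called between lines are named. The members and lists were chosen with earlier results of these data known.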

Additional observations from a re-analysis of the deposited data

Results flagged for a closer look

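In the 4 SK-LMS-1 DMSO libraries, 1 library lay far from the other 3 for 4 of 9 genes with any counts, by the gap to its nearest neighbour over the whole range (Dixon's 95% critical value, 0.829). Chance alone flags about 1 in 20 groups, but with 3 libraries at 0, as for MEST and H19, any count in the other gives a flag. MEST had 0.602 CPM (21 counts) in set 2 library 1 and 0 in the others. H19 had 0.181 CPM (7 counts) in set 4 library 2 and 0 in the others. PEG3 had 5.96 CPM in set 4 library 1, above 3.44 to 3.73 CPM in the others. PLAGL1 had 14.3 CPM in set 4 library 2, below 15.4 to 15.7 CPM in the others, so that the whole range is narrow.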

How the results depend on the processing

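The calls between the lines for MEST, PEG3, MEG3, NNAT and NDN held under DESeq2, its size factors, both filters, the smaller set of libraries and each library left out, except that NNAT was not tested with the filter at a mean count of 50. With 1 library left out, the DMSO comparison of the lines gave 4 to 6 members higher in SK-LMS-1 with 1 lower, and that of the combination libraries 4 to 5 with 1 lower. Of the treatment counts, DESeq2 and the fit with no filter each called 1 member lower in SK-UT-1B (MEG3), and the fit with no filter 1 member higher for the difference of effects (MEG3). Leaving out 1 library gave 0 to 1 members lower in SK-UT-1B, 0 to 1 higher with MK-0752, 0 to 1 higher with the combination in SK-LMS-1, 1 to 2 higher for the difference of effects, and 0 to 1 lower between the DMSO sets. The cause was not tested.

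Some log2FC that were not called changed sign. With the other DMSO set as control, PEG10 (0.11) and NDN (-0.20) did after MK-0752, MEST (-0.46), PEG3 (0.44), MEG3 (0.18) and NNAT (-0.52) after the combination in SK-LMS-1, and MEST (-0.19) for the difference of effects. With all 4 DMSO libraries as control, PEG3 (0.18) and NNAT (-0.0088) did after the combination. With 1 library left out, the SK-LMS-1 combination values ran from -0.87 to 0.51 for PEG3, -0.12 to 0.37 for CDKN1C, -0.35 to 0.050 for MEG3 and -0.032 to 0.31 for PLAGL1. Those of MK-0752 ran from -0.52 to 0.19 for PLAGL1 and -0.073 to 0.80 for NDN. Those of SK-UT-1B ran from -0.45 to 0.28 for CDKN1C and -0.15 to 0.42 for PLAGL1. Those of the difference of effects ran from -0.29 to 0.26 for PLAGL1, -0.31 to 0.024 for PEG10, -0.15 to 6.79 for MEG3 (fitted against a group at 0) and -0.18 to 0.54 for CDKN1C. PLAGL1 between the DMSO sets ran from -0.11 to 0.0023.

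SK-LMS-1 DMSO set 4 and combination shared 2 replicate numbers, which did not pair the libraries (correlation of deviations r = -0.01 over 21114 genes). DMSO set 2 and MK-0752 shared 1 number, as did the SK-UT-1B groups, which allows no block. With the replicate block, 0 members were called in the comparisons it could be fitted to, and all genes called after the combination in SK-LMS-1 went from 3 higher and 2 lower to 2 and 0. The all-gene counts, list counts and TFPI2 values under alternatives were added after seeing the data. With 1 library left out, the wider imprinted list gave 0 to 2 genes higher and 0 to 1 lower in SK-UT-1B, 0 to 1 higher after the combination in SK-LMS-1, and 1 to 2 lower after MK-0752. DESeq2 called 286 genes higher and 169 lower in SK-UT-1B, against 83 and 35. With 1 library left out, all genes called ran from 157 to 561 higher and 153 to 495 lower in SK-UT-1B, from 38 to 195 and 16 to 52 after the combination in SK-LMS-1 (3 and 2 with all libraries), and from 28 to 159 and 69 to 111 after MK-0752 (12 and 41). Of genes expected at 10 to 50 counts in a library, 17.0% to 47.3% had 0, and at 50 to 200 counts 0.128% to 4.90%. The share did not follow depth: SK-LMS-1 DMSO set 4 library 2 (40709885 counts) had 44.5% and SK-LMS-1 combination library 2 (25900176 counts) 19.3%. Library 1 of these groups had 45.1% and 17.0%, so zeros were more common in these DMSO libraries than in the treated ones. The cause was not tested, and a 0 in 1 library is weak evidence for a gene read at this level elsewhere.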

Other observations

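The genes whose log2(CPM + 1) followed the most abundant members most closely over the 12 libraries were, for MEST, NFIA (Pearson r = 0.999), RTN4RL1 (0.997) and ZNF385C (0.997), and, for PEG10, AGFG2 (0.986), MEF2C (0.984) and CHIC1 (0.979). The points share the split between the lines: 2033 tested genes had r above 0.9 with MEST and 1240 with PEG10.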
